A study of Mus musculus with 9 samples.

Results

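Cytosolic ribosomal protein genes encode the proteins of the cell's translation machine. They were taken here by symbol: Rpl or Rps followed by a number and an optional suffix, plus Rplp0, Rplp1, Rplp2 and Rpsa, leaving out rows named as pseudogenes with "-ps" and the S6 kinases. The rule found 89 of the 30579 genes in the table, 53 named for the large subunit and 36 for the small one. Of these, 83 were annotated as protein coding in GENCODE M21, 5 (Rpl6l, Rpl32l, Rps12l1, Rps3a2 and Rps3a3) as processed pseudogenes and Rps4l as a transcribed processed pseudogene. Among rows that belong to the family or copy it but fall outside the name rule, Rack1, Fau, Rpl36al, Rps27rt and Rpl37rt are given apart.

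The 9 RNA-seq libraries came from mesenchymal stromal cells, the support cells of the bone marrow, which were isolated from mouse long bones by flow cytometry. They formed 3 groups of 3: mice labelled aged Thbs1 knockout, 18 months old, aged controls, 18 months old, and young controls, 3 months old. All mice were injected through the retro-orbital sinus with an antibody against VE-cadherin, an endothelial adhesion protein, before their death. Libraries were made from 2 ng of RNA with the SMART-Seq v4 kit, which copies polyadenylated RNA from its 3' end and amplifies it. The labels do not give the knockout allele, the strain or whether each library came from a separate mouse, so the spread behind each p-value may be technical.

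Ribosomal proteins are made in near-equal numbers and join ribosomal RNA in the nucleolus to form the large and small subunits. Most of their messages begin with a C followed by a run of pyrimidines, the 5' terminal oligopyrimidine tract, through which mTOR signalling and the protein Larp1 adjust their translation. A few mammalian ribosomal proteins have a second gene copy, a paralog, whose use differs between tissues. In mice Rpl39l is known from male germ cells, and Rpl22l1 is known to be held down by Rpl22.

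Of the members, 3 such copies, Rpl39l, Rpl22l1 and Rps4l, had the smallest p-values with age, though none passed with all 9 libraries. Their sequences are set beside those of their parent genes. Rpl39 encodes a very small protein at the peptide exit tunnel. Its whole coding sequence, stop codon included, is shown from GENCODE M21 transcripts (GRCm38), with the bases that differ from the copy in capitals. The 2 genes lie on chromosomes X and 16.
Rpl39: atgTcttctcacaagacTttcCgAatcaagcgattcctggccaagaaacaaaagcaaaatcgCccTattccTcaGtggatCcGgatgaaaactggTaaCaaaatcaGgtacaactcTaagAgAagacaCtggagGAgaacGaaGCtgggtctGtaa
Rpl39l: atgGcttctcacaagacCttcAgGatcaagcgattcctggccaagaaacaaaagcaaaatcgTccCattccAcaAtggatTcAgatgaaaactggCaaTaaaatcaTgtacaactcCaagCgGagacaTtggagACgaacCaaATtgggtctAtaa
Over these 156 bases 23 differ, an identity of 85.3%, and the longest stretch without a difference is 38 bases.

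Rpl22 and Rpl22l1, on chromosomes 4 and 3, encode paralogous large-subunit proteins. Bases 67 to 126 of the Rpl22 coding sequence and the aligned bases of Rpl22l1 hold 15 differences, marked in capitals.
Rpl22: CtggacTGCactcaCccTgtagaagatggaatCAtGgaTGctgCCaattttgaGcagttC
Rpl22l1: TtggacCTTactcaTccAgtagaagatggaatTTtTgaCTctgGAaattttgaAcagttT
Over all 357 aligned bases their identity was 70.9%. Rps4l, on chromosome 6, is a single-exon copy of the small-subunit gene Rps4x on chromosome X, which has 7 exons. Their first 60 bases differ at 7 positions, again in capitals, and identity was 80.1% over 789 aligned bases.
Rps4x: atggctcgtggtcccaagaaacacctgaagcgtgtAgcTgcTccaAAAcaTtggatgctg
Rps4l: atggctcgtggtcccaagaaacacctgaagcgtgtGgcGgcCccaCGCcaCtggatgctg
The other pairs were Rps27 and Rps27l (75.3% identity), Rpl3 and Rpl3l (74.3%), Rpl10 and Rpl10l (84.8%) and Rpl7 and Rpl7l1 (60.4%). How reads matching both genes of a pair were counted is not stated in the labels or the table.

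The start of transcription is shown for a few members because of the pyrimidine tract the family is known for. Only members with a match to the search given below are shown. Rpl41 and Rpl7l1 were also read and held no match. The windows below hold 30 bases around the annotated start on the gene's strand, from RefSeq (GRCm38.p6), with the match in capitals.
Rps6 (chr4:86857353-86857382, minus strand): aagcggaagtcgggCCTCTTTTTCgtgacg
Rpl15 (chr14:18270972-18271001, minus strand): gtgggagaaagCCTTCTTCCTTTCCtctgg
Rps27 (chr3:90213634-90213663, minus strand): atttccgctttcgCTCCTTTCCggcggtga
Rpl39l (chr16:10170213-10170242, plus strand): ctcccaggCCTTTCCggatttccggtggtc
Rpl22l1 (chr3:28805493-28805522, plus strand): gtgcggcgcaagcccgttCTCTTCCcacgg
The search took a C followed by at least 5 bases that are each C or T, on the gene's own strand only, in the 10 bases before and 10 after the annotated start. Capitals stop at the edge of that range, so a run of C and T can go on beyond them, as in Rpl15 and Rpl22l1. It matched in 32 of the 64 members with an entry (50.0%), against 17.4% of 27025 genes with an entry and 20.3% of 69 mitochondrial ribosomal protein genes. Of 6 paralog copies with an entry, 3 held a match: the pair shown and Rps27l.

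Levels are given in FPKM, fragments per kilobase of transcript scaled to the library's mapped fragments. Of the 89 members, 88 were above 0 in at least 1 library and Rpl10l, a single-exon copy of Rpl10, was listed at 0 in all 9. Mean FPKM over the 9 libraries was above 100 for 27 members, 10 to 100 for 52 and under 10 for 10. The highest means were those of Rplp1 (390.0), an acidic stalk protein, Rps29 (346.9), Rpl41 (295.2), which encodes one of the smallest known proteins, and Rpl32 (278.5). At the low end stood Rpl3l (0.136), a muscle copy of Rpl3, the pseudogenes Rpl32l (0.926) and Rps3a3 (1.08), and Rps12l1 (1.70). The 8 highest members made up 27.9% of the summed mean. Genes were tested where at least 3 libraries reached 1 FPKM, which kept 86 members of 11988 genes and left out Rpl10l, Rpl32l and Rpl3l.

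**Figure D1:**
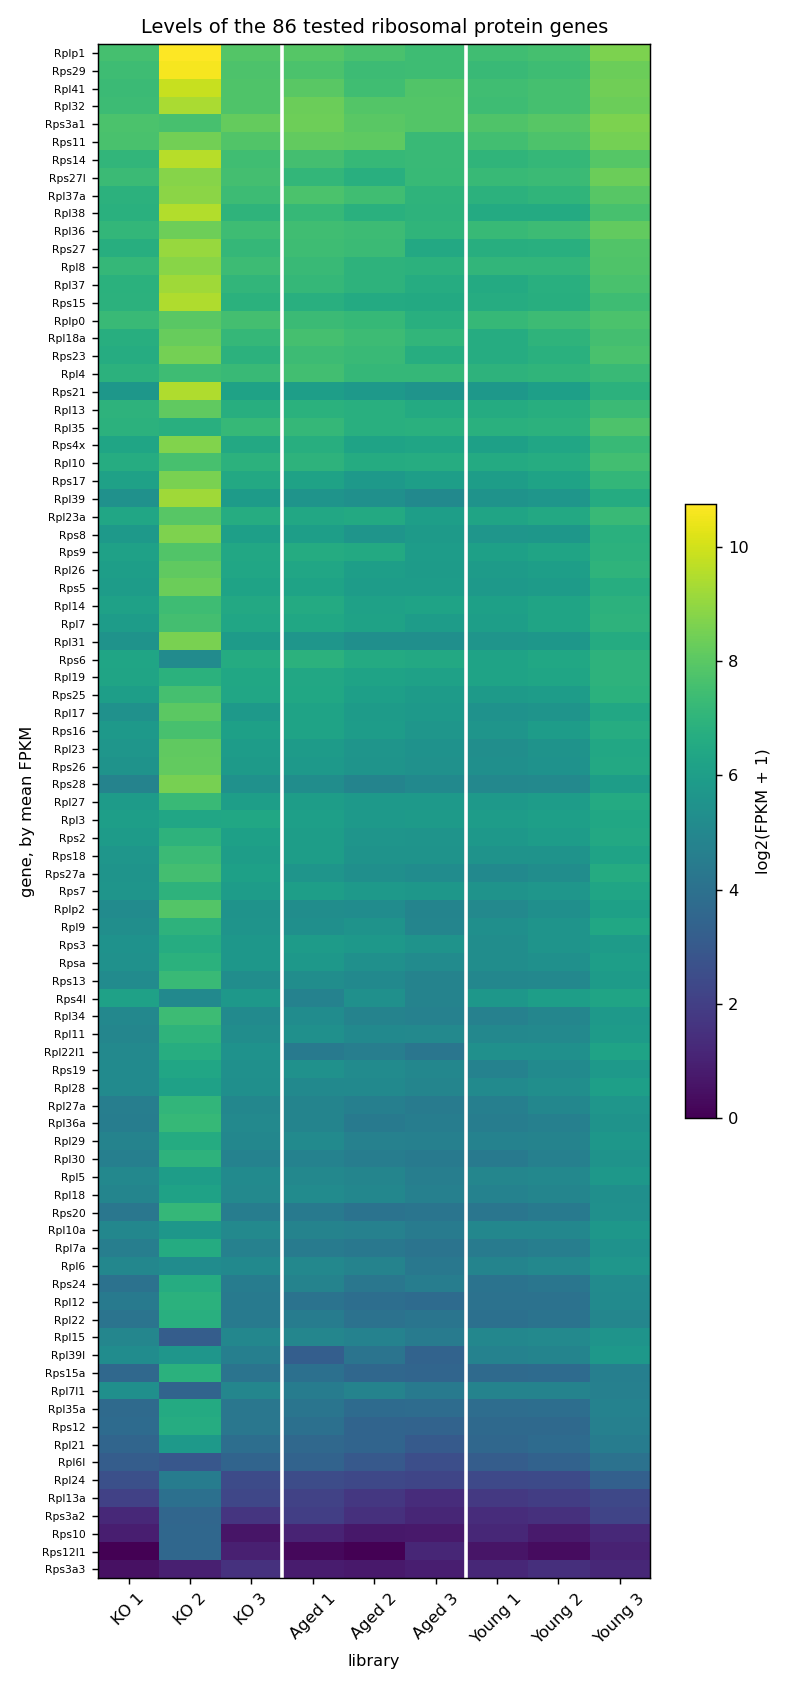
Each row is 1 of the 86 tested ribosomal protein genes, ordered by mean FPKM over the 9 libraries, and each column a library: KO, the libraries labelled aged Thbs1 knockout, then aged controls, then young controls. Colour gives log2(FPKM + 1). Column KO 2 is brighter than the others in most rows and darker in a few (Rps6, Rpl15, Rpl7l1, Rps4l); column Young 3 is brighter than Young 1 and Young 2 in nearly all rows.

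For some protein-coding members, rows of close copies held as much FPKM as the gene itself in means over all 9 libraries. The table held 220 rows named as "-ps" copies of ribosomal protein genes. Rps10, a small-subunit protein, averaged 2.03 FPKM, while its "-ps" rows summed to 42.2 FPKM. Rpl21, Rpl36a, Rps13 and Rpl9 likewise had "-ps" sums of 125%, 109%, 104% and 103% of the parent gene's mean. For Rps13 and Rpl9 the second labelled-knockout library weighed heavily in these means. There Rps13-ps2 had 314.96 FPKM and Rpl9-ps6 332.98 FPKM, against at most 24.02 and 37.55 FPKM in the other 8 libraries. All "-ps" rows came to 6.65% to 7.51% of the summed member FPKM in 8 libraries and to 14.3% in the second labelled-knockout library. Since the counting of shared reads is not stated, levels of these members are uncertain.

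Members summed to 5479, 21995 and 6667 FPKM in the labelled-knockout libraries, to 6900, 5773 and 5171 FPKM in aged controls and to 5145, 5707 and 9826 FPKM in young controls. The second labelled-knockout library was far above the other 8, and the third young control was the next highest. The mean was 11380 ± 9212 FPKM in labelled-knockout libraries, 5948 ± 878 FPKM in aged controls and 6893 ± 2556 FPKM in young controls (SD, n = 3 each). Without the second labelled-knockout library that group averaged 6073 ± 840 FPKM (SD, n = 2), so the groups overlapped.

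As a share of all FPKM, members took 1.74%, 3.87% and 1.95% in labelled-knockout libraries, 1.19%, 1.53% and 0.711% in aged controls and 1.66%, 1.82% and 2.80% in young controls. On this measure all 3 aged controls lay below every library of the other groups. Immunoglobulin genes, the products of plasma cells, took 0.925%, 48.8% and 10.5% of all FPKM in labelled-knockout libraries, 54.6%, 17.3% and 70.7% in aged controls and 0.0224%, 0.0489% and 0.861% in young controls. With immunoglobulin genes left out of the total, the members' share was 1.76%, 7.56% and 2.18% in labelled-knockout libraries, 2.62%, 1.86% and 2.42% in aged controls and 1.66%, 1.83% and 2.82% in young controls, and the groups overlapped. In sorted bulk cells, fewer cells of a type and less RNA per cell cannot be told apart.

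**Figure D2:**
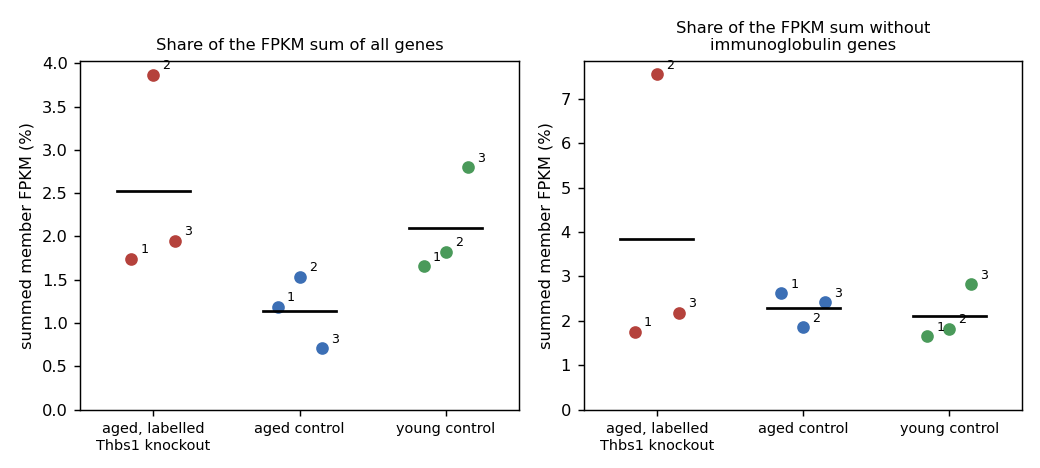
Points are libraries, numbered by replicate, and bars are group means of the summed FPKM of the 89 ribosomal protein genes, as a percentage of all FPKM (left) and of all FPKM without immunoglobulin genes (right). On the left the aged controls (0.711% to 1.53%) sit lowest; on the right they (1.86% to 2.62%) lie among the other libraries, and labelled-knockout library 2 stands at 7.56%.

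The libraries' identity touches every comparison. Thbs1, the gene named in the label, had 24.28, 44.55 and 37.05 FPKM in labelled-knockout libraries, against 35.56, 41.89 and 36.85 FPKM in aged controls and 74.98, 73.11 and 58.03 FPKM in young controls, so its level did not separate the labelled-knockout libraries from aged controls. The 9 stromal markers (Cxcl12, Lepr and others) summed to 6591 to 9068 FPKM in labelled-knockout libraries, 4281 to 6230 FPKM in aged controls and 8507 to 9589 FPKM in young controls, and none was at 0. The 7 leukocyte markers (Ptprc, Cd53 and others) summed to 2.94 to 39.1 FPKM in labelled-knockout libraries, 107 to 734 FPKM in aged controls and 4.08 to 8.77 FPKM in young controls, with Ptprc at 0 in 1 labelled-knockout library. Neutrophil markers (5 genes) had another order, with sums of 21.8 to 45.25, 19.4 to 183 and 87.7 to 245 FPKM in the same groups. Sums of 3 erythroid markers were 27.5 to 73.6, 39.6 to 76.6 and 50.9 to 165 FPKM. Young control 3 had the highest sum of both these lists. All 4 endothelial markers together were at or under 2.41 FPKM in labelled-knockout and young control libraries and reached 11.7 FPKM in aged controls, nearly all of it Pecam1, which leukocytes also carry. Whether other cells or immunoglobulin RNA had a part in the differences described next was not tested.

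The second labelled-knockout library stood apart in this family. It also had the fewest genes above 0, 13503 against 16557 to 18382 in the other 8 libraries, and the part of this in the family's levels was not tested. Its level was above both other libraries of its group in 77 of 86 tested members, against 28.5% of all tested genes, and it was the highest of all 9 libraries in 71. The median member was at 3.35 times the mean of libraries 1 and 3. Rpl39 had 42.20, 584.83 and 58.05 FPKM in the labelled-knockout libraries, 46.54, 41.55 and 32.78 FPKM in aged controls and 44.46, 48.39 and 96.52 FPKM in young controls. Rps21, a small-subunit surface protein, had 51.05, 703.09 and 72.00 FPKM in labelled-knockout libraries, 64.08, 54.53 and 46.70 FPKM in aged controls and 52.11, 66.20 and 120.44 FPKM in young controls. In both genes 1 library carried the whole excess.

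A few members went the other way in that library. Rpl15, a large-subunit protein, had 29.08, 7.89 and 30.37 FPKM in labelled-knockout libraries, against 29.43, 26.36 and 21.47 FPKM in aged controls and 30.03, 32.25 and 45.58 FPKM in young controls. Rps6, the small-subunit protein phosphorylated by S6 kinases downstream of mTOR, had 78.42, 35.71 and 96.29 FPKM in labelled-knockout libraries, against 119.12, 95.21 and 88.75 FPKM in aged controls and 74.69, 82.50 and 123.34 FPKM in young controls. Both genes were lowest of all 9 in the second labelled-knockout library, as was Rpl7l1 at 10.12 FPKM, against 20.17 FPKM or more in every other library. In all, 7 members lay below both other libraries of the group, and 4 of these were at under 0.6 times their mean: Rpl15 (0.265), Rpl7l1 (0.290), Rps6 (0.409) and Rps4l (0.548).

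Members with short coding sequences tended to have the highest ratios there. Among 81 members with a coding model, the log2 ratio of that library to the others of its group fell with log coding length, at Pearson's r = -0.54 and Spearman's rho = -0.58 across genes, which share a library and are not independent. Across 10956 other tested genes r was -0.03. Against exon length r was only -0.05 among members and -0.06 over all tested genes. The median ratio was 5.40 in the 10 members with at most 300 coding bases, 4.95 in 28 with 300 to 450, 3.32 in 18 with 450 to 600 and 2.10 in 25 with more, against 1.03, 0.842, 0.711 and 0.609 in other genes of the same lengths. Member medians lay above those of other genes in every range, and medians fell with length in both.

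The third young control was a milder case. It was above both other young controls in 84 of 86 members, against 40.5% of all tested genes, with a median ratio of 1.86. Its ratio fell with coding length among members (r = -0.55) and also among other genes (r = -0.44). Against exon length r was -0.09 among members and -0.32 over all tested genes. Rplp1 had 176.03, 192.01 and 398.16 FPKM in young controls, and Rps27a, a fusion of ubiquitin and a small-subunit protein, had 33.23, 37.82 and 97.77 FPKM. Rpl7l1 did not follow, with 27.32, 27.32 and 24.32 FPKM.

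**Figure D3:**
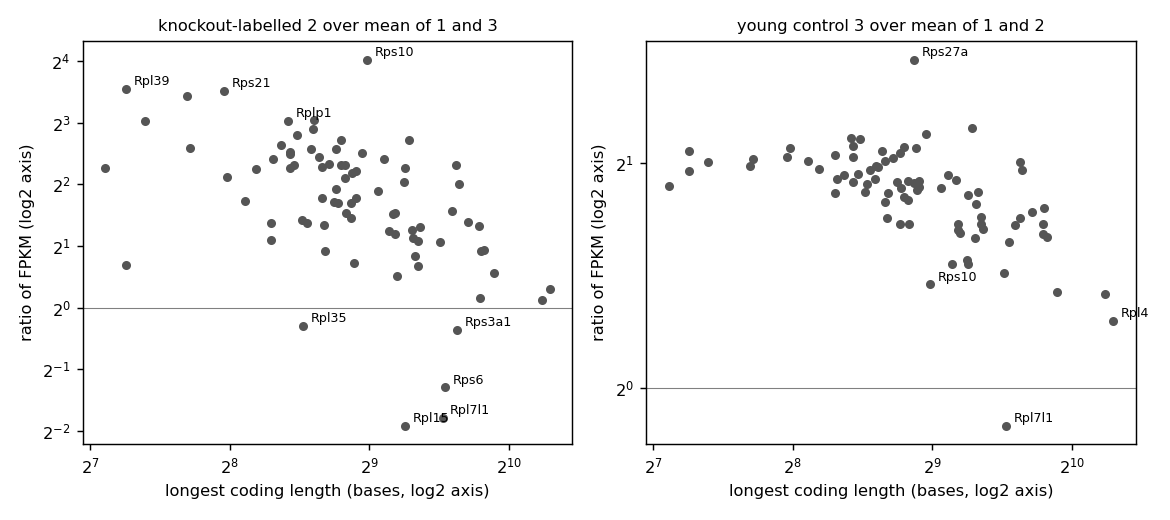
Points are ribosomal protein genes with a coding model. The horizontal axis gives the longest coding length without the stop codon, the vertical axis the FPKM of 1 library over the mean of the other libraries of its group, both on log2 axes; the grey line marks a ratio of 1. Left, labelled-knockout library 2: ratios tend to fall with length but scatter widely, with Rps10 (16.2) highest and Rpl15 (0.265) lowest. Right, young control 3: nearly all ratios lie between 1 and 2.8.

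The subunits kept their balance outside that library. The summed FPKM of small-subunit over large-subunit members was 0.744, 0.835 and 0.756 in labelled-knockout libraries, 0.751, 0.754 and 0.731 in aged controls and 0.722, 0.735 and 0.759 in young controls. Only the second labelled-knockout library lay outside 0.722 to 0.759. Taken relative to the library's median member on the log2 scale, 79 of 86 members had an SD under 0.3 over the other 8 libraries, with a median SD of 0.15. Including that library the median SD was 0.27. Rpl35 (SD 0.04), Rpl26 (0.05), Rpl10 and Rpl29 (0.06 each) were the steadiest over the 8 libraries, and the copies Rpl39l (0.79), Rps4l (0.58) and Rpl22l1 (0.53) the least steady, with Rpl7l1 (0.47) after them. These SDs depend on group differences as well as on replicate spread.

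The first comparison set mice labelled Thbs1 knockout against controls of the same age, 18 months. The 2 groups also differed in leukocyte markers, and the labelled genotype cannot be told apart from these here. None of the 86 tested members passed in limma at an adjusted p of 0.05, while 3.48% of all tested genes did. An unadjusted p under 0.05 was found in 2 of the 86 members, against 2379 of all 11988 tested genes. The members' log2 fold changes, on the log2(FPKM + 1) scale, had a median of 0.65, with 82 positive and 4 negative, beside a median of 0.07 over all tested genes. Large-subunit members had a median of 0.59 and small-subunit members 0.69. Without the second labelled-knockout library the member median was 0.12, with 61 of 85 positive, below the median of 0.25 over all tested genes. Without the first library of that group instead, it was 1.04.

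With all libraries, the smallest p-values in that comparison were those of Rpl39l and Rpl22l1. Rpl39l had 36.87, 49.06 and 24.06 FPKM in labelled-knockout libraries, 8.39, 16.37 and 9.65 FPKM in aged controls and 26.47, 27.45 and 52.67 FPKM in young controls. Aged controls were low in all 3 libraries and overlapped with neither other group. The log2 fold change of labelled-knockout over aged control libraries was 1.59 (SE 0.37, limma adjusted p = 0.053), just short of the threshold. Rpl22l1 had 32.10, 101.26 and 43.98 FPKM in labelled-knockout libraries, 20.03, 22.88 and 17.62 FPKM in aged controls and 40.96, 40.50 and 74.57 FPKM in young controls. Its aged controls too lay below all 6 other libraries. Of all tested genes, 16.6% were higher in every labelled-knockout than in every aged control library. A share of 37.4% was lower in every aged than in every young control. Its log2 fold change was 1.34 (SE 0.41, limma adjusted p = 0.118).

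Rps4l followed the same order less cleanly, with 70.51, 33.56 and 51.88 FPKM in labelled-knockout libraries, 25.78, 41.39 and 26.83 FPKM in aged controls and 50.72, 64.39 and 76.15 FPKM in young controls. One labelled-knockout library, the second, lay below the highest aged control, and no aged control reached the lowest young control. Its log2 fold change between labelled-knockout and aged control libraries was 0.68 (SE 0.32, limma adjusted p = 0.273). Estimated reads behind these values, from FPKM, exon length and the depth recovered from low values, were 166 to 853 for Rpl39l, 727 to 3656 for Rpl22l1 and 525 to 1732 for Rps4l in a library, so counting error was small beside the spread between libraries.

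Without the second labelled-knockout library, 2 of 85 members rose in labelled-knockout over aged control libraries: Rpl39l by 1.36 (SE 0.37, limma adjusted p = 0.0388) and Rps4l by 0.96 (SE 0.27, limma adjusted p = 0.0438). Of all tested genes 16.0% then passed, 11.5% as rises, so that the members' share was below that of genes at large. Rpl22l1 stood at 0.87 (SE 0.29, limma adjusted p = 0.07), and passed (limma adjusted p = 0.0234) when the third young control, which enters only through the spread, was left out too.

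Libraries of the 2 groups did not overlap in 9 members, all higher in labelled-knockout libraries, against 16.6% of all tested genes. These were Rpl10a, Rpl12, Rpl22l1, Rpl28, Rpl39l, Rpl5, Rpl7a, Rps15 and Rps27l. Without the second labelled-knockout library 11 were higher, adding Rps4l and Rpl7l1, against 41.8% of all tested genes, and Rpl32 was lower, against 10.6%.

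The second comparison, of aged with young controls, asks about age. The 2 groups also differed in immunoglobulin share and leukocyte markers, and age cannot be told apart from these here. None of the 86 members passed in limma, against 4.04% of all tested genes. An unadjusted p under 0.05 was found in 3 of the 86, against 2601 of all 11988 tested genes. The members' median log2 fold change was -0.24, with 10 positive and 76 negative, close to the median of -0.28 over all tested genes. The direction of that median did not hold: it was 0.05 without the third young control, 0.07 with immunoglobulin genes left out and libraries rescaled, 0.09 after median-ratio rescaling and 0.03 after quantile normalization.

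The same 3 copies had the smallest p-values with age. Rpl39l had a log2 fold change of -1.53 (SE 0.37, limma adjusted p = 0.054), Rpl22l1 of -1.27 (SE 0.41, limma adjusted p = 0.12) and Rps4l of -1.02 (SE 0.32, limma adjusted p = 0.112). This comparison shares its aged controls with the first, so low values there enter both. Without the second labelled-knockout library, which enters here only through the spread estimated over all libraries, all 3 fell, by the same amounts: Rpl22l1 (SE 0.26, limma adjusted p = 0.0129), Rpl39l (SE 0.33, limma adjusted p = 0.0154) and Rps4l (SE 0.24, limma adjusted p = 0.0214). Of all tested genes 23.1% then passed, 17.9% as falls, against 3 of 85 members. With the third young control left out as well, Rpl22l1 fell by 0.99 (limma adjusted p = 0.0244) and Rpl39l fell by 1.22 (limma adjusted p = 0.037), while Rps4l stood at -0.88 (limma adjusted p = 0.0539).

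Groups did not overlap in 8 members, all lower in aged controls, against 37.4% of all tested genes lower in that way. Besides the 3 copies these were Rpl10a, Rpl15, Rpl28, Rps27l and Rps3a3. Rpl10a, a protein of the large subunit's L1 stalk, had 27.10, 25.41 and 20.95 FPKM in aged controls and 30.38, 30.12 and 51.23 FPKM in young controls, a log2 fold change of -0.55 (SE 0.29, limma adjusted p = 0.304). Rps27l, a copy of Rps27 that p53 induces, had 138.36, 109.90 and 148.38 FPKM in aged controls and 150.81, 161.04 and 320.10 FPKM in young controls, with a log2 fold change of -0.59 (SE 0.43, limma adjusted p = 0.455).

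The third comparison sets the labelled-knockout libraries against young controls, across both age and label. No member passed in limma, while 0.025% of all tested genes did. None had an unadjusted p under 0.05, against 1035 of all 11988 tested genes. The median log2 fold change was 0.45, with 77 positive and 9 negative, beside -0.16 over all tested genes. Without the second labelled-knockout library it was -0.14, and 0 of 85 members and 0.313% of all tested genes passed. With all 9 libraries, Rpl39l differed by 0.06 (SE 0.37) and Rpl22l1 by 0.07 (SE 0.41) on the log2 scale. Over the settings tried these values ranged from -0.17 to 0.37 for Rpl39l and from -0.40 to 0.42 for Rpl22l1, so their sign did not hold. The smallest p was that of Rpl15, at -0.84 (SE 0.45, limma adjusted p = 0.616), which the second labelled-knockout library carried: without it the value was -0.24.

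**Figure D4:**
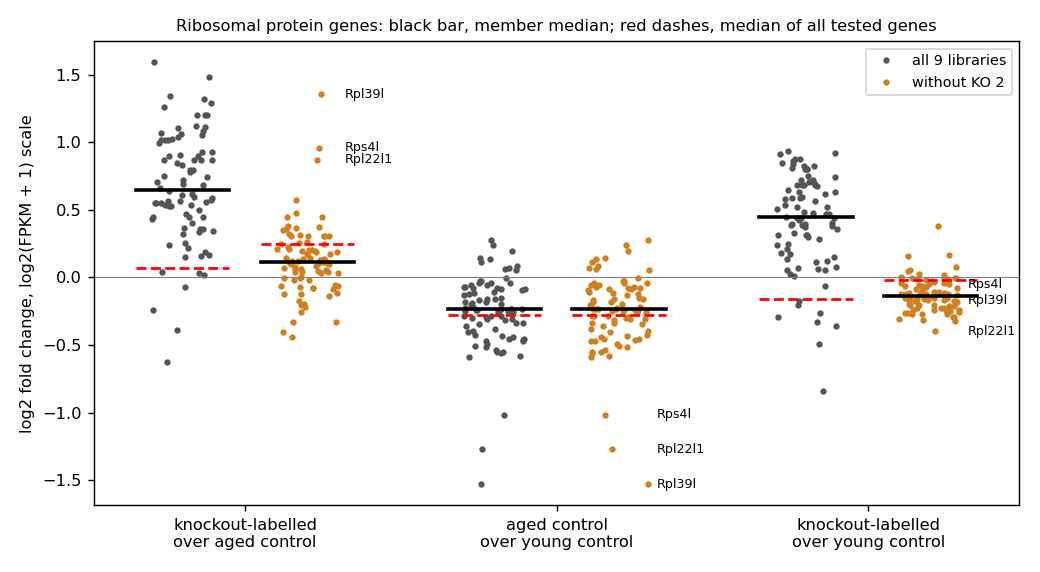
Points are ribosomal protein genes and the vertical axis is the log2 fold change on the log2(FPKM + 1) scale for each comparison, from all 9 libraries (grey, left) and without labelled-knockout library 2 (orange, right). Black bars mark the members' median and red dashes the median of all tested genes. Member medians of 0.65 and 0.45 with all libraries become 0.12 and -0.14 without that library, where Rpl39l, Rps4l and Rpl22l1 are the 3 highest members over aged controls; in aged over young controls they are the 3 lowest either way.

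A shift shared by the whole family can hide a member's own change, so levels were also set against the median member of each library. On that scale no member passed in any comparison, while 1.79%, 2.2% and 0.00834% of all tested genes did in labelled-knockout over aged control, aged over young control and labelled-knockout over young control libraries. The members with an unadjusted p under 0.05 numbered 0, 2 and 0. This scaling moved the median of all tested genes to -0.54, -0.08 and -0.57. Rpl39l had the smallest p among members with age, at -1.34 (SE 0.55, limma adjusted p = 0.65). Rps6 had it for labelled-knockout over aged control libraries, at -1.23 (SE 0.69, limma adjusted p = 0.792), a value set by the second labelled-knockout library.

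Without that library, the family scale gave 2 falls in aged over young controls, Rpl22l1, which fell by 1.08 (SE 0.28, limma adjusted p = 0.0344) and Rpl39l, which fell by 1.34 (SE 0.36, limma adjusted p = 0.0421). On this scale 5.19% of all tested genes passed in that comparison, 0.913% as falls, against 2 of 85 members. No member passed in labelled-knockout over aged control libraries, where 4.73% of all tested genes did, or over young controls, where 0.237% did. Rpl39l then stood at 1.27 (SE 0.40, limma adjusted p = 0.106) over aged controls.

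Paralog and parent can be set against each other within a library. Rpl22l1 over Rpl22 was 1.93, 0.919 and 2.13 in labelled-knockout libraries, 0.909, 1.46 and 1.03 in aged controls and 2.84, 2.49 and 2.56 in young controls. All young controls lay above all aged controls and above all labelled-knockout libraries. The labelled-knockout libraries overlapped with aged controls through their second library. Rpl39l over Rpl39 was 0.874, 0.0839 and 0.414 in labelled-knockout libraries, 0.180, 0.394 and 0.294 in aged controls and 0.595, 0.567 and 0.546 in young controls. Again young and aged controls did not overlap, and the low second labelled-knockout value came with a Rpl39 level of 584.83 FPKM. Rps4l over Rps4x was 0.909, 0.0805 and 0.578 in labelled-knockout libraries, 0.243, 0.560 and 0.346 in aged controls and 0.749, 0.785 and 0.506 in young controls, and here all groups overlapped.

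Rps27l over Rps27 showed no such order, at 1.53, 0.824 and 1.28 in labelled-knockout libraries, 0.822, 0.688 and 1.69 in aged controls and 1.41, 1.47 and 1.41 in young controls. Rpl7l1, a pre-ribosome assembly factor related to Rpl7, was at 0.661, 0.0543 and 0.364 of Rpl7 in labelled-knockout libraries, 0.264, 0.366 and 0.338 in aged controls and 0.423, 0.361 and 0.202 in young controls. In both pairs the groups overlapped. Of the parent genes, Rpl22 had a log2 fold change of -0.07 (SE 0.62) and Rpl39 of -0.56 (SE 0.84) in aged over young controls, errors too wide to show equality.

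**Figure D5:**
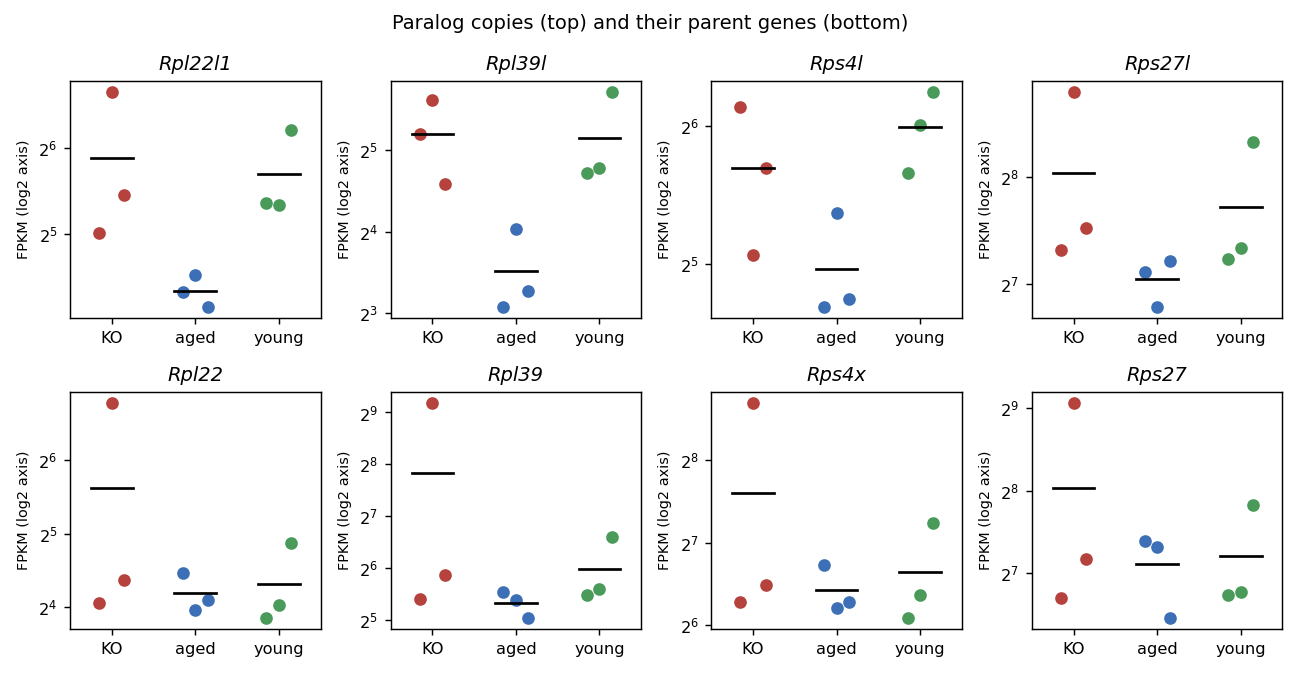
Points are libraries and bars are group means of FPKM, on log2 axes, for 4 copies (top) and their parent genes (bottom); KO marks the libraries labelled aged Thbs1 knockout. The aged controls of Rpl22l1 (17.62 to 22.88) and Rpl39l (8.39 to 16.37) lie below all other libraries, while in each parent gene 1 labelled-knockout library, the second, lies far above the rest.

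None of the members singled out for known roles, given next, passed in any comparison. Rpl5 and Rpl11 bind 5S ribosomal RNA and, when assembly fails, the p53 regulator Mdm2. Rpl5 had 31.71, 62.19 and 33.79 FPKM in labelled-knockout libraries, 31.02, 28.38 and 23.20 FPKM in aged controls and 29.33, 31.18 and 52.64 FPKM in young controls. Rpl11 had 29.87, 124.69 and 37.54 FPKM in labelled-knockout libraries, 41.02, 33.20 and 31.90 FPKM in aged controls and 31.40, 32.64 and 59.37 FPKM in young controls. In labelled-knockout over aged control libraries Rpl5 gave 0.55 (SE 0.32, limma adjusted p = 0.381) and Rpl11 0.55 (SE 0.49, limma adjusted p = 0.576), neither beyond the spread between libraries.

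Rps19 and Rps14 encode small-subunit proteins whose loss of one copy causes anaemia in humans. Rps19 had 34.18, 81.35 and 40.63 FPKM in labelled-knockout libraries, 41.72, 35.29 and 30.55 FPKM in aged controls and 26.43, 34.36 and 53.63 FPKM in young controls. Rps14 had 134.25, 765.66 and 175.43 FPKM in labelled-knockout libraries, 182.30, 146.74 and 154.67 FPKM in aged controls and 128.56, 140.57 and 240.32 FPKM in young controls. The groups overlapped in both, with the second labelled-knockout library highest of all.

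The stalk that recruits elongation factors is built of Rplp0, Rplp1 and Rplp2. Rplp0, its long base protein, had 155.74, 251.48 and 184.81 FPKM in labelled-knockout libraries, 161.42, 145.88 and 108.78 FPKM in aged controls and 147.40, 161.51 and 207.87 FPKM in young controls. Rplp1 and Rplp2, its short acidic proteins, were at 8.13 and 5.76 times the mean of the other 2 libraries in the second labelled-knockout library, against 1.48 for Rplp0. Rpsa, the small-subunit protein also known as the laminin receptor, had 41.66, 114.16 and 49.78 FPKM in labelled-knockout libraries, 51.68, 40.45 and 35.18 FPKM in aged controls and 37.40, 41.01 and 63.10 FPKM in young controls.

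Related genes were described by their counts. These 5 rows outside the name rule (Rack1, Fau, Rpl36al, Rps27rt and Rpl37rt) had 0 passes in limma and 0 unadjusted p-values under 0.05 in any comparison, with median log2 fold changes of 0.85 in labelled-knockout over aged control libraries, 0.03 in aged over young controls and 0.88 in labelled-knockout over young control libraries. Of 77 tested mitochondrial ribosomal protein genes, Mrpl27 alone passed with age: it fell by 1.08 (SE 0.21, limma adjusted p = 0.0302). The log2 fold change with age was negative in 75 of the 77, against 8930 of all 11988 tested genes. An unadjusted p under 0.05 was found in 25 of the 77, against 2601 of all tested genes. The list's median was -0.55, beside -0.28 over all tested genes. In labelled-knockout over aged control libraries none of the 77 passed, with a median of 0.28, beside 0.07 over all tested genes. There 18 had an unadjusted p under 0.05, against 2379 of all 11988 tested genes.

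Among 43 ribosome biogenesis genes 0 passed with age (7 unadjusted p-values under 0.05, median -0.23), and Nob1, the nuclease that finishes 18S ribosomal RNA, rose in labelled-knockout over aged control libraries by 0.89 (SE 0.20, limma adjusted p = 0.0483). None of 29 initiation factors passed in aged over young controls (0 unadjusted p-values under 0.05, median -0.24) or in labelled-knockout over aged control libraries (3, median 0.02). Nor did any of 16 elongation factors and other messages with a pyrimidine tract (3, median -0.33, and 2, median 0.27). Of 18 tested regulators of ribosome synthesis, Myc, its best-known activator, fell by 1.42 with age (SE 0.33, limma adjusted p = 0.05, just under the threshold), as did Cdkn1a, a p53 target (log2 fold change -1.65, SE 0.34, limma adjusted p = 0.0331), and Eif4ebp1, an mTOR substrate that restrains translation (-1.14, SE 0.25, limma adjusted p = 0.0409). Rps6ka1, an S6 kinase abundant in leukocytes, rose with age by 3.94 (SE 0.67, limma adjusted p = 0.0196) and fell by 3.16 in labelled-knockout over aged control libraries (SE 0.67, limma adjusted p = 0.0382), as the leukocyte markers were. With age 1.47% of all tested genes fell and 2.57% rose, and in labelled-knockout over aged control libraries 1.96% fell and 1.52% rose. Of all 11988 tested genes, 2601 and 2379 had an unadjusted p under 0.05 in these 2 comparisons. On the scale set by the median ribosomal protein gene only the calls of Rps6ka1 were kept among these genes, and those of Myc, Cdkn1a, Eif4ebp1, Nob1 and Mrpl27 were not (lowest limma adjusted p = 0.856). With 1 library left out at a time, each of these calls, those of Rps6ka1 included, passed in 1 to 4 of 9 fits, and all passed without the second labelled-knockout library. Mtor (-0.01, SE 0.25) and Larp1 (-0.21, SE 0.20) did not pass with age.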

How the data were processed

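RNA sequencing of 9 sorted stromal cell libraries was deposited by the authors as 1 table of FPKM per gene, per the file headers, with 2 decimals. Per the submitters' processing notes the build was GRCm38 (mm10) and the tools included STAR, edgeR and FastQC 0.11.5. No source used here says how each served, which annotation was used or how reads matching several genes were counted. Because FPKM is relative to the library total, abundant immunoglobulin RNA lowers all other values.

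Low FPKM values times the exon length of the gene (GENCODE M21) were whole reads within 0.1 for 99.2% to 100.0% of values at 17.6 to 27.6 M reads per library (M, mega), searched between 5 and 60 M. For a gene of 600 bases 3 reads came to 0.181 to 0.283 FPKM, which covers counting error only. No count test was run, since whole reads rest on estimated lengths.

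Tests used limma 3.58.1 in R 4.3.3 with an intensity trend on log2(FPKM + 1), on genes with at least 1 FPKM in at least 3 libraries, with group means over all 9 libraries and Benjamini-Hochberg adjustment over all genes tested (threshold 0.05). Fold changes on this scale understate low genes. The same fit was repeated after subtracting each library's median member. The procedure was tested on simulated data. Members, gene lists, marker lists and alternatives were chosen with earlier results of these data known. Named members were those with the highest and lowest means, the smallest p-values, the largest and smallest spread, the paralog pairs and 8 genes of known roles; a part of these is named, and Rps21, Rpl35, Rpl26, Rpl28, Rpl7a, Rps15 and Rps10 were added after their values were seen. One gene outside the name rule is not reported here. Sequences were read from GENCODE M21 transcripts and RefSeq (GRCm38.p6) start regions, which had an entry for 64 members. Python 3.11.15, numpy 2.4.6, pandas 2.3.3, Biopython 1.88 and matplotlib 3.10.9 were used.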

Additional observations from a re-analysis of the deposited data

How the results depend on the processing

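The settings tried were quantile normalization, median-ratio rescaling, rescaling with immunoglobulin genes left out, a minimum of 5 FPKM, no filter, a pseudocount of 0.1, a fit of the compared groups alone, the replicate block, and each library left out; leaving out labelled-knockout library 2 together with young control 3 was chosen after seeing the data. Values are given in the order A, labelled-knockout over aged control, B, aged over young control, and C, labelled-knockout over young control. Genes passing were 417, 484 and 3. They became 92 and 138 with no filter (A and B), 199 with a minimum of 5 FPKM (A), 14, 2128 and 1 with only the compared groups, 1317, 1223 and 48 with median-ratio rescaling without labelled-knockout library 2, and 13 to 1895, 4 to 2729 and 2 to 37 with 1 library left out (highest without labelled-knockout library 2 in each). Without that library and young control 3 they were 2454, 1935 and 3. Members passing, 0 in each comparison, became 1 (minimum of 5 FPKM), 3 (only the compared groups) and 2 (median-ratio rescaling without labelled-knockout library 2) in B, 0 to 2 and 0 to 3 with 1 library left out in A and B, and 3 (A) and 2 (B) without labelled-knockout library 2 and young control 3. On the family scale B gave 0 to 2 with 1 library left out and 2 without both. The members' median became 0.12 to 1.04 (A) and -0.14 to 0.80 (C) with 1 library left out, 0.12 (A) without both, and -0.16 (A) and -0.082 (C) with median-ratio rescaling without labelled-knockout library 2. Single named members kept their side of the threshold in 2180 of 2196 alternative values as deposited and in 1271 of 1275 on the family scale, and in the others passed where they had not before. The causes were not tested.

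Replicate numbers did not pair the samples: same-numbered libraries correlated at -0.29 to 0.30 in their deviations from group means, and the replicate block gave 64, 120 and 2 genes and 0 members passing. With 3 libraries a group, differences of the size seen without labelled-knockout library 2 could not be told from library spread when it was kept. Leaving out 1 of 3 libraries leaves 2, whose spread is then pooled with the other groups.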
